A study of Mus musculus with 38 samples.

Results

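Adipokines are proteins that fat tissue secretes into the blood, and 8 genes that encode them were followed here: Lep, Adipoq, Retn, Cfd, Rbp4, Rarres2, Nampt and Apln. They were taken as every non-control probe on the array that carried one of these gene names, which gave 12 probes out of 40628 (8 of the 29411 gene names on the array). Lep, Adipoq, Cfd, Rbp4 and Rarres2 had 1 probe each, Retn and Nampt had 2 each, and Apln had 3. Probes are called by the last part of their identifiers, such as P374882 for Lep.

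RNA of epididymal stromal vascular cells (SVCs), what is left of fat tissue once adipocytes are taken away, and which the labels call infiltrating macrophages, was hybridised to 38 one-colour Agilent arrays. All mice were C57BL/6J, weaned at 3 to 4 weeks of age. The low fat control diet (LFC) took 10% of its calories from fat, and the high fat high sucrose control diet (HFC) took 60%. HF5, HF20 and HF75 were the HFC diet with 5, 20 or 75 µg of KAL-1, an aqueous ethnobotanical formulation. LFC and HFC had 10 arrays each, taken on days 6 (D6), 10 (D10) and 14 (D14) and every 3 weeks from week 0 (W0) to week 18 (W18), and each dose had 6 arrays, from W3 to W18. The study counted weeks from day 14, so W0 and D14 fall on the same elapsed day and W18 stands for 20 elapsed weeks, which is the scale of the slopes given below. Each diet thus had a single array at each time point, the labels do not say how many mice went into an array, and the arrays of 1 diet at other time points were the only replicates. On 4 arrays, those of HF20 and HF5 at the last pair of weeks (W15, W18), the diet label gives the dose of the other group, and the dose in the source name was used.

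Levels are log2 of the processed signal of a probe minus log2 of the 75th percentile signal of its array, so that 0 stands for the 75th percentile. They compare arrays for 1 probe and are not compared between probes. The 75th percentile signal ran from 25.8 (HF5 W12) to 1983 (HFC W0) across the arrays, and 40.1% to 91.6% of the spots were well above background. On 4 arrays (HFC W9, HF75 W12 and LFC at W9 and W12) the mean level of 20 adipocyte marker genes, none of them a member, was between 4.90 and 5.09, against 0.84 to 4.42 on the other 34. Saturated marker spots were kept in such means, which are then lower bounds. At least 19 of the 20 adipocyte markers and at least 16 of 18 macrophage markers were well above background on each array, so RNA of genes typical of adipocytes was detected in all of these stromal vascular preparations. A mean over 12 immediate early genes, such as Fosb and Atf3, which are induced when cells are stressed or isolated, was between -0.09 and 1.71 on the same 4 arrays, below the 3.94 to 5.59 of the others. The main values are therefore also given without these 4 arrays, which were singled out with earlier results of these data known, and no test was made of them as a group. In such RNA, fewer cells of a type and less RNA per cell cannot be told apart.

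In fat tissue, mature adipocytes make leptin (Lep), which signals fat stores to the brain, and adiponectin (Adipoq), a hormone that raises insulin sensitivity. They also make adipsin (Cfd), the serine protease that activates the alternative complement pathway, and, in mice, resistin (Retn), which opposes insulin action. Retinol binding protein 4 (Rbp4) carries vitamin A in blood, chemerin (Rarres2) attracts macrophages and dendritic cells through Cmklr1, Nampt makes the NAD precursor NMN, and apelin (Apln) is the ligand of the receptor Aplnr, which acts on blood vessels.

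Resistin was the only member whose probes overlapped each other in sequence, and its pair is shown because they served as a check on one another. Capitals mark the 22 bases that they share, read 5′ to 3′ as on the array.
Retn P233597: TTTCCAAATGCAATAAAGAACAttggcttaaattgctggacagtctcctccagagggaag
Retn P55972: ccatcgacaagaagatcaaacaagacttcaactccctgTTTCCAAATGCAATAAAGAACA
The single adiponectin probe, on which all values for that gene rest, shared no run of 20 bases with any other probe.
Adipoq P458451: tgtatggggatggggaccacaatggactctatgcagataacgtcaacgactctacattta
The Rbp4 probe shared a run of 39 bases with the probe of LOC100047573, which the array annotates as similar to retinol binding protein, so a signal of 1 cannot be separated from the other. The other members' probes shared no such run with a probe of another gene.

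Adipoq ranked the arrays much like Retn (Spearman's rho 0.86 and 0.88) and Cfd (0.82), and less like Lep (0.63). Lep was nearer to Retn (0.66 and 0.70), and Rbp4, not shown here, was at least as near to Retn (0.79 and 0.81) as Cfd was (0.77 and 0.76). These genes thus do not form 2 separate groups. The 150 bases before the start of Lep, Adipoq, Retn and Cfd are shown, read 5′ to 3′ on the plus strand of GRCm38.p6 as RefSeq gives them. Motifs searched on both strands were the TATA box (TATAAA), the CCAAT box, a C/EBP type motif with the letters TTNNGNAA, the Sp1 type GC box GGGCGG and the E-box with the letters CACGTG, and capitals mark matches.
Lep, chr6:29060071-29060220: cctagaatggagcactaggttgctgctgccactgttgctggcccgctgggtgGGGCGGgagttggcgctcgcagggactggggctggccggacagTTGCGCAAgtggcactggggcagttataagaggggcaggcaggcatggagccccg
Adipoq, chr16:23146386-23146535: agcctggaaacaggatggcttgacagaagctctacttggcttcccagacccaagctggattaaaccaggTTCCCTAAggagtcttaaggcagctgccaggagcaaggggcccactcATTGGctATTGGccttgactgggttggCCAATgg
Retn, chr8:3655620-3655769: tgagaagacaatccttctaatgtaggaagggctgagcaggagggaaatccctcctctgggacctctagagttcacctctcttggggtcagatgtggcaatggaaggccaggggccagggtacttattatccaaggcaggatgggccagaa
Cfd, chr10:79890703-79890852: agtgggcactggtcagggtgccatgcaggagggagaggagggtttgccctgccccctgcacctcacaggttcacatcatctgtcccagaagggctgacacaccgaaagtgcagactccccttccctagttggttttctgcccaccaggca
The Lep window held TTGCGCAA 55 bases and GGGCGG 98 bases before the start. The Adipoq window held CCAAT or its reverse ATTGG at 7, 27 and 34 bases and TTCCCTAA at 81 bases before the start, and the Retn and Cfd windows held none of these letters. Over 250 bases of 32851 promoters, 36.8% held TTNNGNAA, 33.8% CCAAT, 32.7% GGGCGG, 12.4% TATAAA and 6.02% CACGTG. These are matches of letters and no more, and 7 of the 8 members had a promoter in that table.

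Leptin was high on 4 of the 38 arrays and low on the rest. Its level was 5.01 on HFC W9, 4.87 on LFC W9, 3.86 on HF75 W12 and 2.19 on LFC W12, with no spot saturated. On the other 34 arrays it ran from -6.71 (HF20 W12) to -1.57 (HF75 W9) with a median of -2.88, so 3.76 log2 units lay between the lowest of the 4 and the next array. These were the 4 arrays with the highest adipocyte marker mean. Lep was well above background on 32 arrays and not on LFC D10, LFC W6, LFC W18, HF75 W3, HF5 W12 and HF20 W12, whose low values have no firm order. By diet, the lowest, median and highest Lep levels were -6.20, -2.85 and 4.87 in LFC and -3.57, -2.45 and 5.01 in HFC. They were -5.31, -2.82 and -1.995 in HF5, -6.71, -3.13 and -2.37 in HF20, and -5.50, -3.33 and 3.86 in HF75. The ranges of the 5 diets overlapped, and without the 4 arrays the medians were -3.25 in LFC, -2.58 in HFC and -3.82 in HF75.

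**Figure D1:**
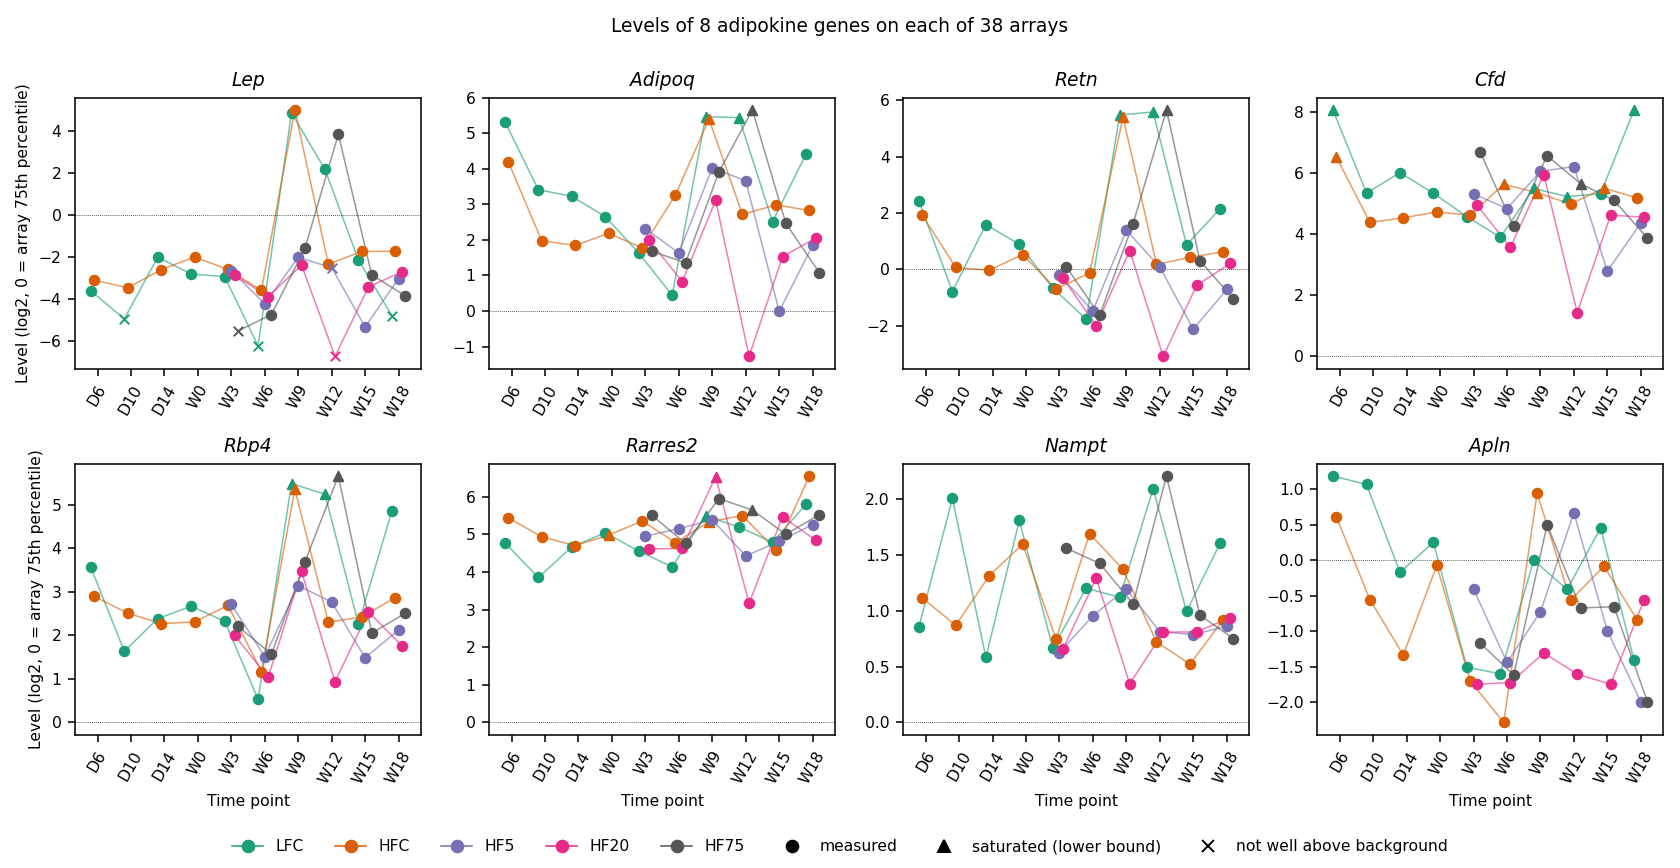
Level of each of the 8 adipokines (y axis, log2 of the signal over the 75th percentile of its array) on every array by time point (x axis), with 1 coloured line per diet, drawn from the brightest probe where a gene has several. Triangles are saturated spots, whose values are lower bounds, and crosses are spots not well above background. Lep stands at 2.19 to 5.01 on LFC and HFC at W9 and on LFC and HF75 at W12 and at -1.57 or lower on every other array, while Nampt stays within 0.35 to 2.20.

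Adiponectin was well detected on each array and spread more evenly than leptin. Its level by lowest, median and highest was 0.45, 3.32 and 5.47 in LFC and 1.78, 2.77 and 5.41 in HFC. It was -0.01, 2.08 and 4.03 in HF5, -1.28, 1.77 and 3.12 in HF20, and 1.08, 2.07 and 5.66 in HF75. The same 4 arrays held the highest values, 5.41 to 5.66, all saturated and so lower bounds. LFC D6 came next, at 5.33 with an unsaturated spot on a dim array, so how far it lay below them is not known. Without the 4 arrays the medians were 2.94 in LFC, 2.72 in HFC, 2.08 in HF5, 1.77 in HF20 and 1.68 in HF75, and neighbouring diets in this order overlapped over most of their ranges.

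Resistin also set the 4 arrays apart. On the probe P55972 they stood at 5.40 to 5.66 and on P233597 at 5.29 to 5.62, all saturated. The other 34 arrays ran from -3.08 (HF20 W12) to 2.42 (LFC D6) on P55972 and from -3.87 to 2.10 on P233597, which left a gap of at least 2.98 and 3.19 log2 units. Both probes thus placed the same arrays at the top, and they ranked the arrays alike (Spearman's rho 0.98 over 38 arrays). By diet, the medians of P55972 were 1.24 in LFC, 0.30 in HFC, -0.46 in HF5, -0.43 in HF20 and 0.20 in HF75, and 0.88, 0.18, -0.46, -0.43 and 0.10 without the 4 arrays.

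Adipsin was at or near the upper end of the scanner in many preparations. It was saturated on the 4 arrays, at 5.24 to 5.66, and also on LFC W18 at 8.07, LFC D6 at 8.06, HFC D6 at 6.53, HFC W6 at 5.64 and HFC W15 at 5.51. Its lowest, median and highest levels were 3.90, 5.35 and 8.07 in LFC, 4.39, 5.09 and 6.53 in HFC, and 2.79, 5.08 and 6.22 in HF5. In HF20 they were 1.44, 4.59 and 5.95, and in HF75 3.87, 5.39 and 6.69. The medians without the 4 arrays were 5.35 in LFC, 4.99 in HFC and 5.11 in HF75. LFC D6 and LFC W18 were dim arrays, with 75th percentile signals of 229 and 230, so a saturated spot is scaled to a higher level there, and the order among the saturated arrays is not known.

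Rbp4, the vitamin A carrier, was again highest on the 4 arrays, at 5.24 to 5.66 and saturated, with LFC W18 next at 4.86 and LFC W6 lowest at 0.54. Its medians were 2.53 in LFC, 2.47 in HFC, 2.42 in HF5, 1.88 in HF20 and 2.36 in HF75, and diets differed less than the time points within each. The LFC median without the 4 arrays was 2.36, below the 2.42 of HFC, and that of HF75 was 2.21. Chemerin did not place all 4 arrays above the others. Rarres2 was 5.20 to 5.65 there, but 3 of the 4 were saturated. Those levels are lower bounds, so whether these 3 arrays stood apart is not known. The remaining array, LFC W12, was unsaturated at 5.20 and lay below HFC W18, which was unsaturated at 6.55. Rarres2 was also saturated on HF20 W9, at 6.54, and on 1 HFC array outside the 4. Its lowest level was 3.17, on HF20 W12, and its medians were 4.78 in LFC, 5.16 in HFC, 5.05 in HF5, 4.74 in HF20 and 5.52 in HF75 (4.72 in LFC, 4.98 in HFC and 5.50 in HF75 without the 4 arrays). HF20 W12 was thus the lowest of all 38 arrays for Adipoq, Retn, Cfd and Rarres2, with Lep not well above background there. That array also had the lowest mean of the adipocyte markers (0.84) and of the macrophage markers (-0.39). Its means of the stromal markers (2.25), the alternative complement pathway (0.83) and the NAD salvage genes (-0.89) were the lowest too. The other lists had their lowest mean on other arrays. The part of the marker levels in these values was not tested.

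Nampt, an enzyme of NAD salvage made by many cell types, had the probe with the narrowest range of the 12. This probe, P387235, ran from 0.35 (HF20 W9) to 2.20 (HF75 W12), with medians of 1.16 in LFC, 1.02 in HFC, 0.84 in HF5, 0.81 in HF20 and 1.24 in HF75 (0.92 in HFC and 1.06 in HF75 without the 4 arrays). The other probe P6328 ran from -3.89 to -0.63 over 37 arrays, HFC W12 being left out as an outlier spot, and the 2 probes ranked the arrays only partly alike (rho 0.67). Apelin had 1 probe, P133345, that was well above background on 5 of 38 arrays, so its values below are mostly background readings. The 2 others were highest on LFC D6, at 1.19 for P62284 and 1.49 for P209327, and lowest at -2.29 on HFC W6 and -3.92 on HF5 W12, the latter not well above background. Their rho was 0.81, and the medians of P62284 were -0.08 in LFC, -0.56 in HFC, -0.86 in HF5, -1.66 in HF20 and -0.92 in HF75 (0.04 in LFC, -0.56 in HFC and -1.17 in HF75 without the 4 arrays).

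The first comparison asked whether the high fat diet altered adipokine RNA, with LFC and HFC set against each other at each of the 10 time points. No member passed the test, and across all probes none did: of 31203 probes tested by limma, 0 (0%) had an adjusted p under 0.05, while 2824 (9.05%) had an unadjusted p under 0.05. Of the 11 member probes tested, 1 had an unadjusted p under 0.05, and 3 were higher and 8 lower in HFC. Their median difference was -0.38 on the log2 scale, beside 0.01 over all probes tested. Without the 4 arrays limma again called 0, 3 of the 11 (Lep, Rarres2 and Apln P62284) had an unadjusted p under 0.05, as had 3011 of all 31082 probes tested, and again 3 were higher and 8 lower.

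The 1 probe of the fit on all arrays was chemerin, which was higher in HFC at 7 of the 10 time points. The differences ran from -0.21 (W15) to 1.08 (D10) with a median of 0.48, and the fitted difference was 0.39 (SE 0.17, n = 10 time points, limma adjusted p = 0.547). It was 0.46 without the 4 arrays and 0.19 with the brightness of the arrays as a covariate. HFC arrays were brighter than LFC arrays at 9 of 10 time points, by 0.659 log2 units on average (SD 0.783), and the part of this in the difference was not tested beyond that fit. Rarres2 was saturated on 1 LFC array and 2 HFC arrays, whose levels are lower bounds.

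Leptin was higher in HFC at 8 of 10 time points, by as much as 3.06 at W18 and 2.64 at W6, where the LFC spots were not well above background. At W12 it was lower in HFC (-4.51), LFC W12 being one of the 4 arrays and HFC W12 not, and at W9, where the arrays of both diets were among the 4, the difference was 0.14. The fitted difference was 0.43 (SE 0.59, limma adjusted p = 0.776). Without the 4 arrays it was 1.08 (SE 0.40, adjusted p = 0.507), without W12 alone 0.98, and with brightness as a covariate -0.55, so neither size nor direction was settled by these arrays. The LFC spot of D10 was also not well above background. The 1.08 and the 0.98 thus include the pairs of D10, W6 and W18, whose LFC values are background readings.

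Adiponectin, resistin, adipsin and Rbp4 lay on the other side. Adipoq was lower in HFC at 7 of 10 time points, from -2.73 at W12 to 2.82 at W6, with a fitted difference of -0.54 (SE 0.44, limma adjusted p = 0.645) and of -0.32 without the 4 arrays. Retn was lower at 8 of 10 on both probes, by -0.76 (SE 0.58) and -0.75 (SE 0.54), and this rested largely on W12, since without the 4 arrays the differences were -0.20 and -0.25. Cfd differed by -0.59 (SE 0.36), 7 of 10 lower, with saturated values in both diets that make it a rough figure (-0.69 without the 4 arrays). Rbp4 differed by -0.42 (SE 0.35), and by -0.14 without the 4 arrays. For Nampt (-0.21, SE 0.22, and 0.11, SE 0.29) and Apln (-0.38, SE 0.24, and -0.11, SE 0.26) the differences were less than 2 times their errors. Apln P62284 differed by -0.57 without the 4 arrays (SE 0.23, limma adjusted p = 0.507).

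**Figure D2:**
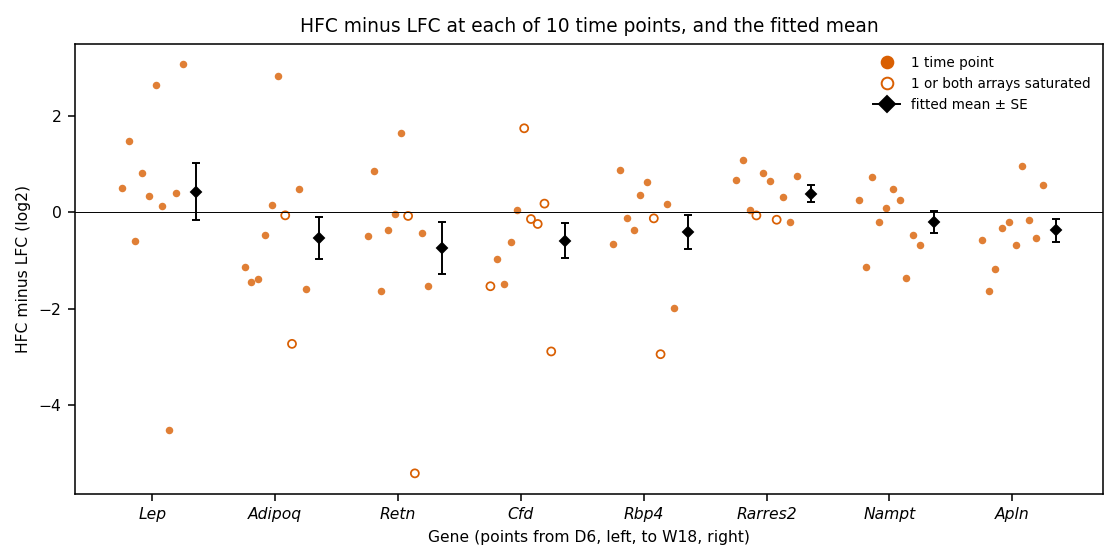
Difference in level between HFC and LFC (y axis, log2) for each gene (x axis), with 1 point per time point from D6 to W18 and a diamond for the fitted mean with its standard error. Open points have a saturated spot on 1 or both arrays. The W12 points lie lowest for Lep (-4.51) and Retn (-5.41), where LFC W12 is one of the 4 arrays with high adipocyte markers, and the points of Rarres2 lie between -0.21 and 1.08.

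Beside these differences stood those of the marker lists. All 20 adipocyte markers were lower in HFC, 10 with an unadjusted p under 0.05 and 0 after adjustment, with a median difference of -0.91. The examples of smallest p were Scd1, a fatty acid desaturase (-1.25, SE 0.30), and Thrsp, which promotes lipid synthesis (-1.61, SE 0.40), each with a limma adjusted p of 0.547. The list's mean level spanned 1.57 to 4.94 in LFC, and in HFC 1.81 to 4.90. All 18 macrophage markers were higher in HFC, 10 with an unadjusted p under 0.05 and 0 called, with a median of 0.68, among them Cd68 (1.06, SE 0.36) and Itgam (1.08, SE 0.40). That list's mean spanned 0.66 to 2.60 in LFC, and in HFC 0.50 to 3.11. Adipoq, Retn, Cfd and Rbp4 thus lay on the side of the adipocyte markers and Lep and Rarres2 on the other, and the part of the cell types in their differences was not tested. Saturated marker spots were kept, and they are scaled lower on brighter arrays, as HFC arrays were at 9 of 10 time points. What part saturation and brightness play in the marker differences was not tested. All 20 adipocyte markers were still lower without the 4 arrays (median -0.77) and all 18 macrophage markers still higher (median 0.46), 7 and 0 of them with an unadjusted p under 0.05.

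Markers of other cell types also differed in sign between the lists, again with 0 genes called. All 9 endothelial markers were lower in HFC (median -0.59, 3 with an unadjusted p under 0.05), among them Kdr (-0.91, SE 0.35) and Cdh5 (-0.98, SE 0.40), as were 5 of 6 brown adipocyte markers (median -1.50, 3 unadjusted), led by Cox8b (-2.51, SE 0.75) and Cidea (-2.11, SE 0.73), and 9 of 10 skeletal muscle markers (median -0.83, 0 unadjusted), such as Myh1. Cidea stood at 5.55 on LFC D6 and 6.08 on LFC D10, against -0.59 and -0.02 on HFC at the same days. Ucp1, also of brown fat, stood at 3.83 and 5.11 on those LFC arrays and at -2.46 or lower on every other LFC and HFC array. The brown adipocyte differences without LFC D6 and LFC D10 are not given here. All 12 epididymis markers (median 1.90) and all 9 mesothelial markers (median 1.79) were higher in HFC, with 0 unadjusted, among them Spag11b (3.35, SE 1.59) and Wt1 (1.89, SE 1.105). Of 13 stromal markers 7 were higher and 6 lower, and of 12 immediate early genes 10 were higher and 2 lower. These last lists turned without the 4 arrays, to 6 higher and 7 lower and to 3 higher and 9 lower, while the counts of the other 5 stayed the same. The part of these tissues in the adipokine values was not tested.

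The receptors and binding partners of the adipokines were mixed, with 6 of 13 tested higher and 7 lower in HFC and none called. The adiponectin receptors were both lower, Adipor2 by -0.64 (SE 0.24) and Adipor1 by -0.51 (SE 0.25). C3ar1, the receptor of complement fragment C3a, was higher by 0.99 (SE 0.33), and these all had limma adjusted p values of 0.547 or 0.548. For the leptin receptor Lepr the difference was -0.22 (SE 0.54) and for the apelin receptor Aplnr -0.43 (SE 0.45). For the chemerin receptors Cmklr1, Ccrl2 and Gpr1 it was -0.30 (SE 0.28), 0.61 (SE 0.47) and 0.03 (SE 0.28). Stra6, which takes up retinol from Rbp4, differed by -0.78 (SE 0.46), and Cap1 and Tlr4, both proposed to bind resistin, by 0.46 (SE 0.28) and 0.12 (SE 0.19).

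Other genes of the same pathways gave no call either. Of 30 other secreted factors of adipose tissue, 20 were higher and 10 lower in HFC, led by C1qtnf2 and C1qtnf6, which belong to the C1q and TNF related family of adiponectin (0.78, SE 0.20, and 0.77, SE 0.26). Of 16 adipogenic transcription factors 5 were higher and 11 lower, with Rxra, the partner of Pparg, at -0.54 (SE 0.15) and Klf5 at 0.90 (SE 0.35). The alternative complement pathway, which includes Cfd itself, split into 4 higher and 4 lower, with the complement regulators Cd55 at 0.64 (SE 0.23) and Cd46 at -0.73 (SE 0.28). The NAD salvage genes around Nampt split into 4 higher and 7 lower, and the smallest p of these belonged to Nadsyn1 (-0.20, SE 0.15).

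Time on the diets was the next question, asked as the change of the difference between HFC and LFC per week and as slopes within each diet. Across all probes limma called 0 (0%) in each, and 4.36%, 3.89% and 7.88% had an unadjusted p under 0.05 for the change of the difference, the LFC slope and the HFC slope. Of 11 member probes, 1 had an unadjusted p under 0.05 in the first and 0 in the others. It was Apln P209327, whose fitted change was 0.087 log2 units per week (SE 0.031, limma adjusted p = 0.981), beside 0.064 (SE 0.031) for P62284, and it was 0.083 (SE 0.034) without the 4 arrays. The slopes of Lep were 0.11 per week in both diets, with errors of 0.14 in LFC and 0.10 in HFC, and without the 4 arrays -0.02 (SE 0.07) in LFC and 0.06 (SE 0.03) in HFC.

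The doses of KAL-1 were compared with HFC at weeks 3 to 18, and all of these comparisons share the 6 HFC arrays. No probe of 33780 was called by limma for HF5, HF20, HF75, the mean of the doses or HFC against LFC over the same weeks (0% each), while 4.72%, 1.54%, 1.96%, 1.73% and 3.22% had an unadjusted p under 0.05. Of 12 member probes 1 had an unadjusted p under 0.05 for HF20, and 0 for the other 4 comparisons. All 12 were lower than HFC in HF5 and in HF20, with median differences of -0.61 and -0.88 beside -0.03 and 0.04 over all probes, but 5 were higher and 7 lower in HF75, with a median of -0.04. Without the 4 arrays 11, 11 and 8 of the 12 were lower in HF5, HF20 and HF75, and limma again called 0. With an unadjusted p under 0.05 there were then 4 member probes in HF20 (Lep, Adipoq and both of Retn), as for 564 of all 33654 probes, and 1 in HF75 (Lep), as for 1918. The 12 probes share arrays and, for some genes, a target, and are not independent of each other. They include Apln P133345, which was well above background on 3 HF20 arrays and on at most 1 array of any other diet. It passed the filter only through HF20, so its differences are mostly between background readings.

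The 1 probe of the fit on all arrays was adiponectin, whose difference in HF20 was -1.79 (SE 0.76, limma adjusted p = 0.9999) and -1.70 (SE 0.69) without the 4 arrays, lower at 5 of 6 weeks, from -4.00 at W12 to 0.23 at W3. It was -0.92 (SE 0.76) in HF5 and -0.47 (SE 0.76) in HF75, which exceeded HFC by 2.94 at W12, the HF75 array among the 4. Resistin P55972 differed by -1.47, -1.81 and -0.13 (SE 0.97 each) in HF5, HF20 and HF75, and by -0.94, -1.28 and -0.69 without the 4 arrays. The HF20 values lay beside an adipocyte marker mean of 0.84 to 2.32, the lowest range of the 5 diets (1.44 to 4.18 in HF5, 1.42 to 5.09 in HF75 and 1.81 to 4.90 in HFC), and 19 of the 20 adipocyte markers were also lower in HF20 than in HFC (median -0.95, and 17 of 20 with a median of -0.53 without the 4 arrays). The part of these markers was not tested.

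Leptin was lower than HFC at 6 of 6 weeks in HF5 and in HF20, and at 5 of 6 in HF75. The differences were -0.06 to -7.01 in HF5, -0.27 to -7.38 in HF20 and -6.59 to 6.18 in HF75, where the lowest values were those of W9, against HFC W9, and the 6.18 was HF75 W12. For the mean of the doses the fitted difference was -1.97 (SE 1.098, limma adjusted p = 0.9999). It was -1.54 (SE 0.62) without the 4 arrays, -0.97 without W9, -2.47 without W12 and -0.66 with scan day in the fit as the block and not the week, and the 3 dose arrays of W9 were scanned on another day than HFC W9. Retn P55972 took a like course with -1.14 (SE 0.79) and -0.53 without W9.

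**Figure D3:**
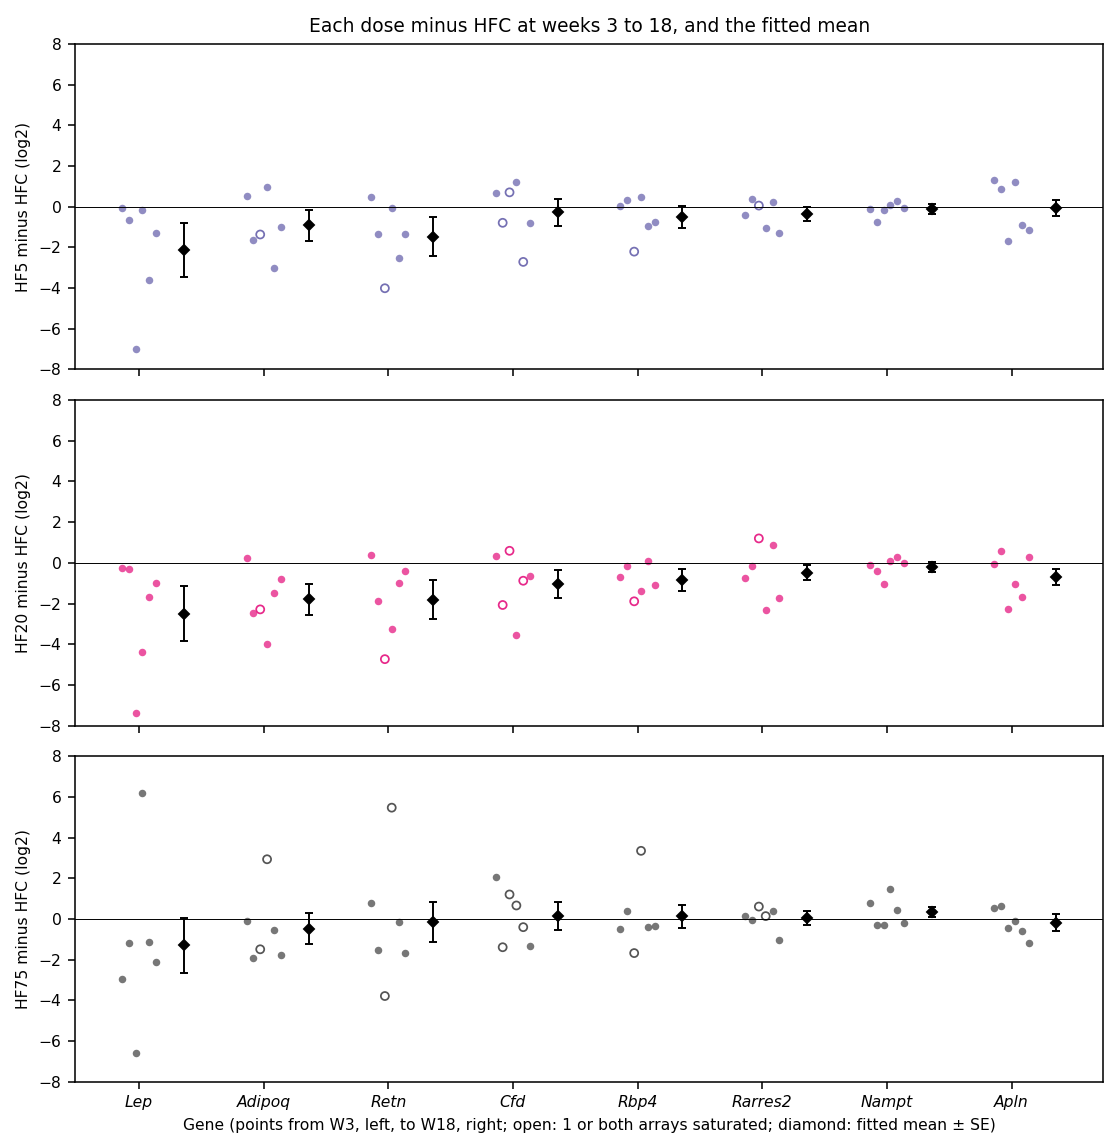
Difference in level between each dose of KAL-1 and HFC (y axis, log2, 1 panel per dose) for each gene (x axis), with 1 point per week from W3 to W18, open where 1 or both arrays were saturated, and a diamond for the fitted mean with its standard error. For Lep the W9 points lie at -7.38 to -6.59 in all 3 doses and the W12 point of HF75 at 6.18, while the points of Rarres2 lie between -2.33 and 1.20.

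The remaining members differed less. Cfd was -0.29, -1.04 and 0.14 (SE 0.68 each) from HFC in HF5, HF20 and HF75, and Rbp4 was -0.51, -0.85 and 0.14 (SE 0.56 each). Rarres2 was -0.35, -0.48 and 0.05 (SE 0.35 each), and Nampt P387235 was -0.12, -0.19 and 0.33 (SE 0.25 each). Apln P62284 was -0.06, -0.69 and -0.18 (SE 0.40 each). None of these exceeded 2 times its error, and for each of these 5 probes the value was lowest in HF20, the middle dose. The other probes did not all share that order, since Nampt P6328 (-0.35, -0.08 and 0.15) and Apln P133345 (-0.70, -0.61 and -0.04), mostly below background, were lowest in HF5, and Apln P209327 (-0.72, -0.91 and -0.56) in HF20. Cfd without the 4 arrays was -0.54, -1.29 and -0.31, and Rarres2 was -0.54, -0.67 and -0.35. The values of HF5 and HF20 rest on the dose in the source name. The diet label exchanges these doses at W15 and W18, and member values under that reading are not given.

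Across arrays the adipokines followed the adipocyte markers to different degrees. Spearman's rho with the mean of the 20 markers over 38 arrays was 0.93 for Adipoq, 0.88 and 0.85 for the Retn probes, 0.79 for Cfd, 0.77 for Apln P62284, 0.75 for Rbp4 and 0.61 for Lep. It was 0.55 for Apln P209327, 0.31 for Apln P133345 and Nampt P387235, 0.27 for Rarres2 and 0.18 for Nampt P6328 (37 arrays). Several other lists had a larger rho with Rarres2, among them the alternative complement pathway (0.76) and the skeletal muscle markers (-0.57). The other secreted factors (0.53), the 18 macrophage markers (0.52) and the mesothelial markers (0.42) did so too. Without the 4 arrays the values with the 20 adipocyte markers were 0.91 for Adipoq, 0.83 and 0.79 for Retn, 0.86 for Cfd, 0.65 for Rbp4, 0.46 for Lep and 0.15 for Rarres2. They were then 0.79, 0.53 and 0.42 for Apln P62284, P209327 and P133345, and 0.13 and 0.04 for Nampt P387235 and P6328. These are descriptions, since the arrays share diets, time points and scan days and each preparation supplied all of the values.

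**Figure D4:**
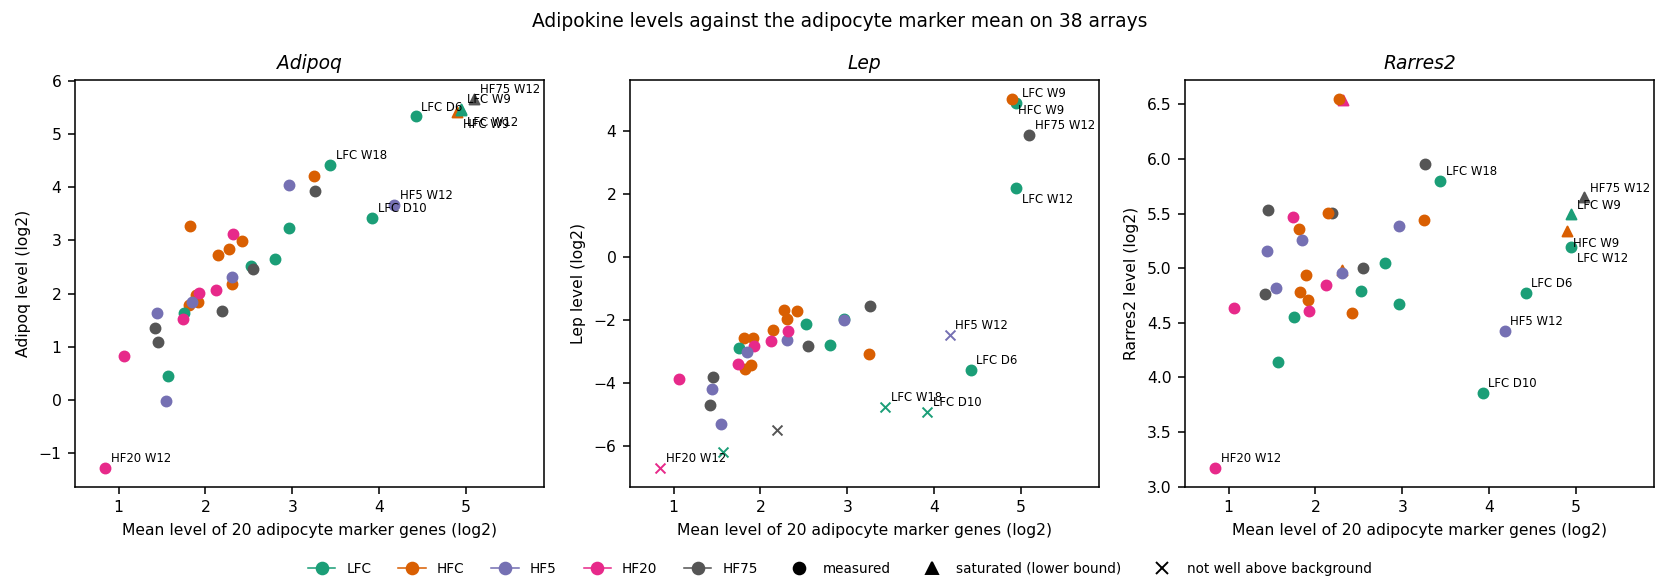
Level of Adipoq, Lep and Rarres2 (y axes, log2) against the mean level of the 20 adipocyte markers on the same array (x axes, log2), with 1 point per array coloured by diet. Triangles are saturated spots and crosses are spots not well above background. Adipoq is higher along the whole range of the markers, whereas Lep stays at -1.57 or lower up to a marker mean of 4.42 and stands at 2.19 or more on the 4 arrays between 4.90 and 5.09, and the points of Rarres2 scatter. Marker means include saturated spots, which are lower bounds and are scaled higher on dim arrays.

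Arrays with many adipocyte transcripts were not all alike in leptin. LFC D6, HF5 W12 and LFC D10 came next after the 4 arrays, with marker means of 4.42, 4.18 and 3.92 and Adipoq at 5.33, 3.66 and 3.42. Their Lep levels were -3.59, -2.49 and -4.93, the latter pair not well above background. The same 3 arrays had the highest mean of 8 brown adipocyte markers, 0.61, 3.25 and 1.86, with Ucp1, the uncoupling protein of brown fat, at 3.83, 6.93 and 5.11. On the 4 arrays that mean was between -2.22 and -0.12. HF5 W12 was the dimmest array, and what part these markers play in the Lep values was not tested.

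The genes with the most similar order over the 38 arrays, out of 24490 probes, differed by member. For Adipoq they were Cidec, a lipid droplet protein (rho 0.94), LOC100047653 (0.92) and Adrb3, the beta 3 adrenergic receptor (0.91). Cidec also led for Cfd (0.89), followed by Adipoq itself (0.82). For Retn they included Ghr, the growth hormone receptor (0.90 and 0.93 on the 2 probes), and Mogat1 (0.87 and 0.89). For Rbp4 they were LOC100047573 (0.95), whose probe shares the 39 bases given above, Apol6 (0.91) and Slc7a10 (0.90).

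The neighbours of Lep and Rarres2 were other genes. For Lep they were Odz4 (0.76), Sucnr1, the succinate receptor (0.75), and Gpr34, a receptor of myeloid cells (0.75), and without the 4 arrays Ccdc109a (0.72), 9030425E11Rik (0.72) and Gpr34 (0.68). For Rarres2 they were S100a10 (0.81), Nupr1 (0.78) and Igf1 (0.75). Without the 4 arrays they were 2210023G05Rik (0.83), S100a10 (0.83) and Scpep1 (0.82), with Nupr1 at 0.77 and Igf1 at 0.76. Nampt P387235 was nearest to Ipo11, Cdc73 and Pank2. Its other probe P6328 had different neighbours (Nckap1, Cct6a and Gm6480). The nearest neighbours of Apln were Prnd for P209327 and Ctnnbip1 for P62284.

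Among the members, Adipoq ranked the arrays most like Retn (rho 0.86 and 0.88) and Cfd (0.82, and 0.88 without the 4 arrays). Lep was less like Adipoq (0.63, and 0.48 without the 4 arrays) and closer to Retn (0.66 and 0.70, and 0.53 and 0.59 without them). Lep and Cfd had a rho of 0.36. Rbp4 and Rarres2 had 0.61, although Rarres2 was only weakly related to the adipocyte markers.

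**Figure D5:**
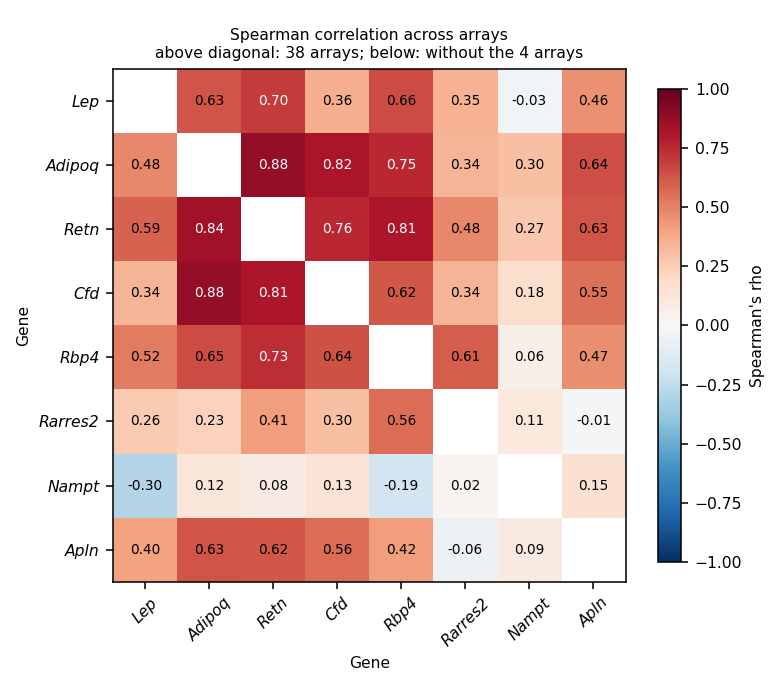
Spearman's rho between the levels of the 8 genes, with the colour and the number in each cell giving rho over 38 arrays above the diagonal and over 34 below it, without the 4 arrays. Adipoq has 0.88 with Retn and 0.82 with Cfd, Retn has 0.81 with Rbp4, and Lep has 0.63 with Adipoq and 0.36 with Cfd.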

How the data were processed

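Per the file headers, the deposited scanner files hold intensity values that the authors obtained with Agilent Feature Extraction (9.1 in the submitters' processing notes): the processed signal is background subtracted and not scaled between arrays. A deposited series table of log2 ratios of each array to LFC holds the authors' own comparison and was not used. From 43803 non-control spots per array, outlier-marked spots (15 to 6257 per array) were left out, levels were scaled to the 75th percentile of each array, and replicate spots averaged. HF75 W12 (6257) and HFC W12 (4850), which enter the W12 differences, had the most outlier-marked spots, and HFC D10 (922) came next. Saturated spots were kept as lower bounds. Differences were fitted with limma 3.58.1 (R 4.3.3) with the time point as a block, on probes well above background on at least 0.5 of the arrays of 1 diet, with two-sided p-values adjusted by Benjamini-Hochberg across the whole set of tested probes and called under 0.05. The fits were tested on simulated data. Since each diet had 1 array at a time point, p-values measure the spread over time points, and the number of arrays limits the precision. All probes of the 8 genes are reported. Genes named from a list were taken from its 2 of smallest p in HFC against LFC, with receptors and binding partners of the members. Genes named as neighbours of a member were taken from the 3 of highest Spearman correlation with each probe. Not all of these are named. Members and lists were chosen with earlier results of these data known.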

Additional observations from a re-analysis of the deposited data

Results flagged for a closer look

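In each diet, the highest and lowest array of each probe was compared with its neighbour (Dixon's criterion). Of 60 groups of a probe and a diet, 8 held such a far value, on 5 arrays, where chance gives about 1 in 20 for independent, normally distributed values. The groups share arrays, and HFC W9 is one of the 4 arrays with high adipocyte markers, so this count does not measure an excess over chance. On HFC W9, Lep stood at 5.01 (next HFC W18 at -1.71), Retn at 5.29 on P233597 (next HFC D6 at 1.60) and 5.40 on P55972 (next HFC D6 at 1.92), and Rbp4 at 5.36, the last 3 saturated. Lep stood at -6.71 on HF20 W12, not well above background (next HF20 W6 at -3.87). Rarres2 stood at 6.55 on HFC W18 (next HFC W12 at 5.50). Apln stood at -3.87 on HF5 W12 for P133345, not well above background, and at -0.55 on HF20 W18 for P62284. HFC W9 had the highest adipocyte marker mean of the HFC arrays (4.90), and the part of the markers in its values was not tested.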

How the results depend on the processing

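In 170 alternative fits of the 9 comparisons limma called no probe, with smallest adjusted p values from 0.0509 upward. Of 437 member differences recomputed, 18 changed sign, and the cause was not tested. For HFC against LFC, Lep (0.43) became -0.55 with array brightness as a covariate and -0.67 with normexp background, which moved the median of all probes to -0.23. Apln P209327 (-0.11) became 0.0614 with brightness and ran from -0.32 to 0.0137 when each time point was left out. Nampt P6328 (0.11) became -0.38 with normexp and ran from -0.0046 to 0.34. For the mean of the doses, Nampt P387235 (0.01) became -0.11 with normexp (median of all probes 0.12) and ran from -0.10 to 0.11, and was -0.0005 without HF5 W12 and HF75 W3, an alternative chosen after seeing the data. Nampt P6328 (-0.09) became 0.19 with normexp, 0.0558 with no time point block (no replicate block), 0.0651 with scan day as the block and 0.14 without the 4 arrays, and ran from -0.21 to 0.13. Apln P133345 (-0.45) became 0.10 with normexp, and Rbp4 (-0.40) became 0.12 with scan day. Of 120 median levels, 7 moved by over 1 SD. Saturation bounds the levels of Adipoq, Retn, Cfd, Rbp4 and Rarres2 on bright arrays, and Lep and Apln lie near background on dim ones. The time point pairs the arrays of different diets, and without that block no probe was called for HFC against LFC, with 1111 at an unadjusted p under 0.05 in place of 2824.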
